A study of Mus musculus with 9 samples.

Results

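Cps1, Prg4, Alox8, Chgb and H2-M2 are 5 genes, of 22180 with a feature on the arrays, whose signal lay lower in gut regulatory T cell (Treg) samples of both Y3 genotypes than in wild-type (WT) samples. They were chosen by that measured difference from WT, so their values against WT are a description and carry no test. None is a familiar gene of regulatory T cells. Each had 1 array feature, annotated to that gene alone, and all 5 passed the filter on dim genes, with 12792 genes tested in all. Alox8 and H2-M2 exceeded the median of their array on 4 of 9 arrays and Chgb on 5, in each case on the 3 WT arrays and 1 or 2 others, so these genes passed through the group in which they were high. Cps1 and Prg4 exceeded it on all 9.

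The samples were Tregs of C57BL/6 mice, isolated from the lamina propria, the tissue layer under the epithelium, of both small and large intestine, and sorted by a red fluorescent reporter of Foxp3. The WT, Y3 and Y3/CD103-/- genotypes had 3 arrays each, and the reporter was used for all of them. The labels do not spell out Y3, which the series title ties to IL-2Rβ, a chain of the interleukin-2 receptor, and CD103-/- denotes loss of the αE integrin chain encoded by Itgae. No group lacked CD103 alone, age was not given, and the labels do not say whether arrays came from separate animals or from pools, so that the p-values here reflect only how these arrays vary, which may be technical. The number of arrays limits the precision.

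The 5 genes encode proteins of unrelated kinds. Cps1 is the mitochondrial enzyme that joins ammonia and bicarbonate into carbamoyl phosphate, the entry step of the urea cycle in liver and of citrulline production in the epithelium of the small intestine. Prg4 encodes lubricin, a mucin-like secreted glycoprotein that lubricates joints and can bind CD44. Alox8 is a lipoxygenase that adds oxygen to arachidonic acid and is known from mouse skin. Chgb encodes chromogranin B, a granin stored in the dense-core granules of endocrine and nerve cells, including enteroendocrine cells of the gut. H2-M2 is a class Ib (nonclassical) class I gene of the mouse major histocompatibility complex (MHC). Cps1 and Chgb are thus known from other cells of the gut wall, and epithelial transcripts were measured beside all 5 genes for that reason.

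Promoter sequence was taken from RefSeq (GRCm38.p6) for the 3 members that matched the table, Chgb, Alox8 and H2-M2, to show what precedes the start sites of genes that lay lower on the same arrays. Each line gives the 250 bases before the annotated start, 5′ to 3′ along the gene's strand, with motif matches in capitals.
Chgb (chr2:132781392-132781641, plus strand): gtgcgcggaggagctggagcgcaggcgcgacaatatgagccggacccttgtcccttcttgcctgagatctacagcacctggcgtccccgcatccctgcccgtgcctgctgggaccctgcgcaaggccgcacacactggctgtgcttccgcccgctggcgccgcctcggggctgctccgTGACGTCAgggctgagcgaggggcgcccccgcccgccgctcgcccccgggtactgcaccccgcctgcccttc
Alox8 (chr11:69197844-69198093, minus strand): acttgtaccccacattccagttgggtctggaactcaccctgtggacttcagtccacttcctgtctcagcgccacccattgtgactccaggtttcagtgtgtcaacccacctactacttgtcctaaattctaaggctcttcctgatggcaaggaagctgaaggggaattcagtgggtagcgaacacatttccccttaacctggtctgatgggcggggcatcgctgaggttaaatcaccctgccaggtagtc
H2-M2 (chr17:37483555-37483804, minus strand): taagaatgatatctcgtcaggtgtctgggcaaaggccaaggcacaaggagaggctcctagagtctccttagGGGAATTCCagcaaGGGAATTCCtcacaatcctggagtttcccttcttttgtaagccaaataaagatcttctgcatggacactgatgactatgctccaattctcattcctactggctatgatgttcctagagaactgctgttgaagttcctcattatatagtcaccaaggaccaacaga
The motifs, chosen with the sequences in view and searched on both strands, were the cyclic AMP response element TGACGTCA, the STAT motif TTCNNNGAA and GGGAATTCC, which resembles sites of NF-kB. The Chgb promoter held 1 TGACGTCA, starting 72 bases before the start site, a motif present in 1.55% of 32851 promoters of this length. The H2-M2 promoter held GGGAATTCC at 179 and again at 165 bases before its start, and 0.21% of the promoters held that motif at least once. Neither these nor the Alox8 promoter had TTCNNNGAA, which 7.02% of all promoters held. The sequences also differed in composition, with 26 CG pairs and 72.8% G or C in Chgb, 4 pairs and 52.4% in Alox8, and 1 pair and 44.8% in H2-M2. A match or its absence describes these letters only.

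On every one of the 6 arrays of the Y3 and Y3/CD103-/- genotypes, each of the 5 genes lay below all 3 WT arrays. That pattern was shared by 2% of the 12792 tested genes (256 genes), and the members were picked for a difference of this kind. Taken singly, Y3 lay wholly below WT in 4.93% of tested genes and Y3/CD103-/- in 6.68%. Values are log2 signal, as deposited, and a log2 difference of 1 is a doubling or halving. The median of all features on an array lay between 3.15 and 3.23, so several of the lower values below are at or under the middle of their array.

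Cps1 stood at log2 4.90, 5.20 and 4.51 on WT arrays 1 to 3, at 3.98, 3.56 and 3.37 on the Y3 arrays and at 3.85, 3.43 and 3.30 on the Y3/CD103-/- arrays. The lowest WT array lay 0.53 above the highest of the other 6, while Y3 and Y3/CD103-/- overlapped. The WT mean was 4.87 ± 0.35 (SD, n = 3), that of Y3 3.64 ± 0.31 and that of Y3/CD103-/- 3.53 ± 0.29, a log2 difference from WT of -1.23 ± 0.23 (SE) in Y3, or 2.35-fold lower, and of -1.35 ± 0.23 in Y3/CD103-/-, or 2.54-fold lower.

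Prg4 measured 5.26, 5.55 and 5.92 in the WT samples, then 4.45, 4.38 and 4.86 with Y3, then 4.32, 4.38 and 3.78 with Y3/CD103-/-. WT was separated from the rest by 0.40, and Y3/CD103-/- array 3 was the lowest of all. The means were 5.58 ± 0.33, 4.56 ± 0.26 and 4.16 ± 0.33, so that lubricin signal was 2.02-fold lower in Y3 (log2 -1.01 ± 0.23) and 2.66-fold lower in Y3/CD103-/- (-1.41 ± 0.23).

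Alox8 measured 4.36, 4.20 and 3.80 in the WT samples, then 3.39, 3.17 and 3.11 with Y3, then 2.76, 2.73 and 3.04 with Y3/CD103-/-. The order of the genotypes was WT, Y3 and Y3/CD103-/- with no overlap between neighbours, although Y3 and Y3/CD103-/- were only 0.07 apart at their nearest arrays. The lipoxygenase went from 4.12 ± 0.29 in WT to 3.22 ± 0.15 in Y3 (log2 difference -0.90 ± 0.18, 1.87-fold lower) and 2.84 ± 0.17 in Y3/CD103-/- (-1.28 ± 0.18, 2.42-fold lower). On 2 of the Y3 arrays and all 3 Y3/CD103-/- arrays it did not exceed the array median.

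Chgb measured 3.79, 4.22 and 4.49 in the WT samples, then 3.23, 2.50 and 2.41 with Y3, then 3.02, 2.71 and 3.21 with Y3/CD103-/-. Y3 array 1 was well above the other two Y3 arrays, and the Y3 genotypes overlapped. The WT mean was 4.17 ± 0.35, that of Y3 2.71 ± 0.45 and that of Y3/CD103-/- 2.98 ± 0.25, a log2 difference of -1.46 ± 0.26 (2.74-fold lower) and -1.18 ± 0.26 (2.27-fold lower). Chgb and H2-M2 were the members whose mean was lower in Y3 than in Y3/CD103-/-.

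H2-M2 measured 3.76, 4.90 and 4.45 in the WT samples, then 3.07, 3.02 and 2.87 with Y3, then 3.02, 3.16 and 3.20 with Y3/CD103-/-. The WT arrays were spread over more than 1 log2 unit, while the other 6 lay close together near the array median. This class Ib gene went from 4.37 ± 0.58 in WT to 2.99 ± 0.10 in Y3 (-1.38 ± 0.25, 2.61-fold lower) and 3.13 ± 0.09 in Y3/CD103-/- (-1.24 ± 0.25, 2.37-fold lower).

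**Figure D1:**
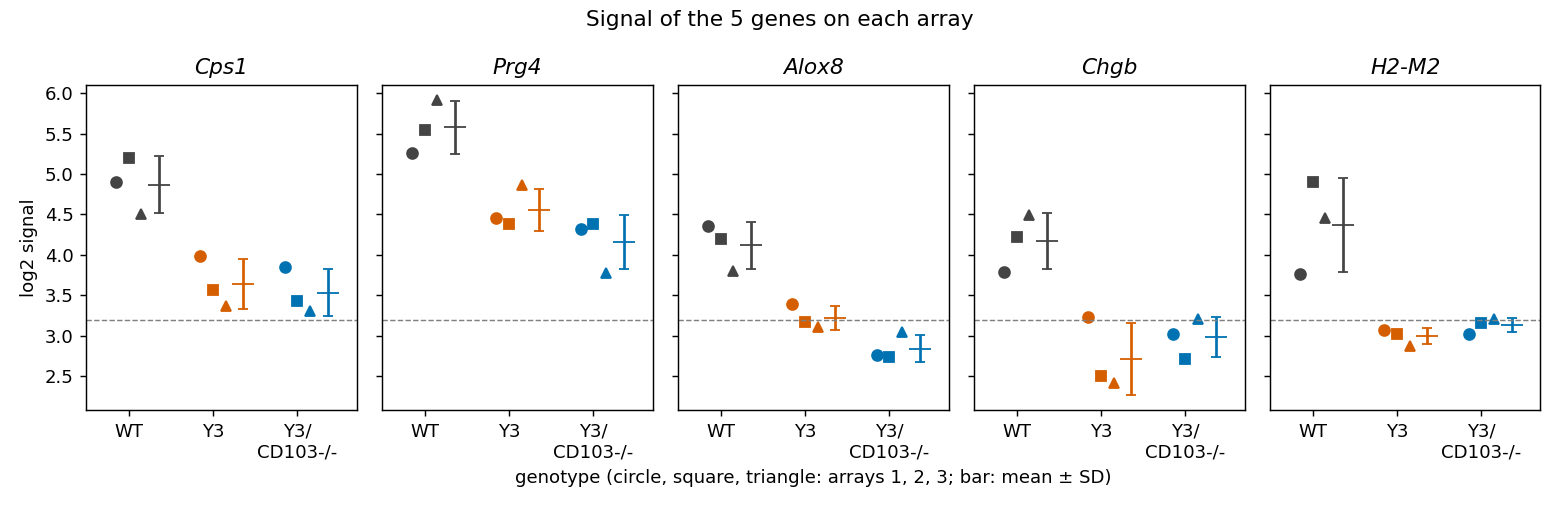
Log2 signal of the 5 genes on each of the 9 arrays, by genotype, with the mean and SD over 3 arrays beside the points. The dashed line is the mean of the array medians, 3.2; the WT arrays lie above the other 6 in every panel, by 0.40 to 0.56 at the nearest arrays.

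Calls came from a limma fit of all tested genes with Benjamini-Hochberg adjustment. For the members they are a description, since the genes were chosen by their difference from WT. At an adjusted p under 0.05, Cps1, Chgb and H2-M2 were called lower in Y3 against WT, where 0.172% of all tested genes were, and Cps1, Prg4, Alox8 and H2-M2 in Y3/CD103-/- against WT, where 0.281% were. In either direction, 0.79% of tested genes were called in Y3 (0.618% higher) and 0.836% in Y3/CD103-/- (0.555% higher). Both comparisons share the WT arrays, so the second is no independent repeat of the first. When each of the 9 arrays was left out in turn, the Y3 calls passed in 2 fits for Cps1, 5 for Chgb and 4 for H2-M2, and the Y3/CD103-/- calls passed in 4 for Cps1, 5 for Prg4, 9 for Alox8 and 1 for H2-M2. In Y3, each of these 3 calls was lost without WT array 2, Y3 array 2 or Y3 array 3. The Y3 call of Cps1 was lost also without WT array 1, Y3 array 1 or Y3/CD103-/- array 2 or 3, that of Chgb without WT array 3, and that of H2-M2 without WT array 3 or Y3 array 1. In Y3/CD103-/-, the call of Cps1 was lost without WT array 1 or 2, Y3 array 2 or Y3/CD103-/- array 2 or 3, that of Prg4 without WT array 2 or 3 or Y3/CD103-/- array 1 or 3, and that of H2-M2 without any 1 array other than WT array 1. The differences themselves kept their sign in all of these fits, between -0.78 and -1.72 in Y3 and between -0.98 and -1.57 in Y3/CD103-/-.

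Loss of CD103 on top of Y3, Y3/CD103-/- against Y3, was not the difference by which the genes were chosen. It still uses arrays of the Y3 genotypes whose low values entered that choice. The members' p-values and counts here are therefore a description too. None of the 5 genes passed, against 0.00782% of all tested genes (1 gene, Itgae itself), and 0 of the 5 had an unadjusted limma p under 0.05, against 9.9% of all. Alox8 alone had groups that did not overlap, lower in Y3/CD103-/-, as 14.4% of tested genes did (18.6% in either direction). The log2 difference of Y3/CD103-/- minus Y3 was -0.11 for Cps1 (95% interval -0.63 to 0.40, limma adjusted p = 0.906) and -0.40 for Prg4 (-0.91 to 0.10, adjusted p = 0.57). It was -0.38 for Alox8 (-0.78 to 0.03, adjusted p = 0.523), 0.27 for Chgb (-0.29 to 0.84, adjusted p = 0.742) and 0.14 for H2-M2 (-0.40 to 0.68, adjusted p = 0.886). The intervals leave room for a further drop of Prg4 or Alox8 by over 0.7 log2, and for a rise of Chgb of similar size.

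Epithelial transcripts were lower on most arrays of the Y3 genotypes too. The list of 40 epithelial genes had 35 tested members, among them Epcam, the general epithelial adhesion molecule, Car1, a colonic carbonic anhydrase, and Krt8, a keratin. Averaged over the list, signal was 5.12, 5.75 and 4.70 for WT, 4.48, 3.80 and 4.27 for Y3, and 5.43, 4.08 and 3.77 for Y3/CD103-/-. In Y3 against WT, 32 of the 35 were lower, 15 of them at an unadjusted p under 0.05, and 0 passed in limma. Over all tested genes, 17% had an unadjusted limma p under 0.05 in either direction in Y3 and 13.3% in Y3/CD103-/-, both against WT. Counts at that threshold in the lists below are to be read beside these shares. The median log2 difference of the list was -1.04 in Y3 and -0.58 in Y3/CD103-/-, against 0.15 and 0.04 over all tested genes. In bulk samples, fewer cells of a type and less RNA per cell cannot be told apart.

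The gene that defines the sort was at a similar level throughout. Foxp3, which directs the Treg programme, measured 9.38 ± 0.09 (SD, n = 3) for WT, 9.52 ± 0.17 for Y3 and 9.55 ± 0.06 for Y3/CD103-/-, and did not pass in any comparison (limma adjusted p from 0.658 to 0.964). Itgae measured 7.93 ± 0.12, 9.32 ± 0.20 and 6.52 ± 0.42 in the same order. Of the 13 Treg identity genes, 1 rose (Itgae) and 1 fell (Nrp1) in Y3, and Itgae, Nrp1 and Il2ra fell in Y3/CD103-/-. Nrp1, a surface receptor of many thymus-derived Tregs, fell by 0.88 in Y3 (limma adjusted p = 0.0497) and by 1.29 in Y3/CD103-/- (0.00976). Its call in Y3 held in 1 of 9 fits with an array left out, that without WT array 1 (0.0328), and that in Y3/CD103-/- in 8, all but the one without Y3/CD103-/- array 3 (0.051). Il2ra, the α chain of the interleukin-2 receptor, fell by 0.86 in Y3/CD103-/- (limma adjusted p = 0.0258, held in 1 of the 9 fits, that without Y3 array 2) and differed by -0.65 in Y3 (0.079). With the epithelial covariate neither gene passed in either comparison, with adjusted p from 0.0589 to 0.273. The differences of Nrp1 and Il2ra were then -0.78 and -0.77 in Y3, and -1.22 and -0.96 in Y3/CD103-/-. Over all tested genes the covariate took the calls from 101 to 13 in Y3 and from 107 to 22 in Y3/CD103-/-. With only the 2 groups in the fit neither gene passed either (limma adjusted p from 0.0639 to 0.111). The Il2ra call was lost also with no filter (0.0636), array weights (0.0634) and the replicate block (0.0533). That of Nrp1 in Y3 was lost also with no filter (0.0914), centring on the array median (0.0591) and the replicate block (0.0976). How much of the epithelial signal came from other cells was not tested.

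Y3/CD103-/- array 1 had the highest epithelial signal of the Y3 genotypes. Its epithelial mean of 5.43 exceeded that of 2 of the 3 WT arrays, its Epcam value of 5.39 exceeded all 3 (5.28, 5.34 and 4.45), and 12 of the 35 epithelial genes were higher there than on any WT array. Other genes of the list lay below every WT array there. These were Fabp2 at 4.87 (lowest WT array 5.87), Slc26a3 at 3.05 (3.58), Apoa4 at 3.40 (3.64), Alpi at 3.64 (3.71) and Lyz1 at 4.49 (4.94). The epithelial mean thus did not stand for every epithelial gene on this array. On that same array all 5 members lay below every WT array, with Cps1 at 3.85, Prg4 at 4.32, Alox8 at 2.76, Chgb at 3.02 and H2-M2 at 3.02. Since the members were chosen for lying below WT, their place on this array is a description, and the part of epithelial cells in their values was not tested by it.

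Within genotypes, Cps1 had the highest correlation with the epithelial list among the members. Its highest array was that of the epithelial list in all 3 genotypes, and the whole order of arrays was the same in 2 of them. After removal of the group means, Pearson's r over the 9 arrays was 0.82 and Spearman's rho 0.72 (exact permutation test within groups, 2-sided, p = 0.0185 and 0.0509). Adjusted over the 35 relations computed, 25 of members with lists and 10 between members, these became 0.216 and 0.356 and did not pass, and r was 0.65 without the 2 arrays farthest from the median, WT array 2 and Y3/CD103-/- array 1. With the list mean as a covariate in the limma model, the log2 difference of Cps1 from WT went from -1.23 to -0.82 in Y3, 66.3% of its size, and from -1.35 to -1.03 in Y3/CD103-/-.

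For the other members the correlation with the epithelial list within genotypes was weak. Pearson's r was 0.20 for Prg4, 0.09 for Alox8, 0.06 for Chgb and 0.11 for H2-M2, with exact permutation p from 0.657 to 0.866 and adjusted p of 0.986 for each (Spearman's rho 0.18, 0.03, -0.08 and -0.12). Without the 2 farthest arrays r was 0.04, 0.42, -0.04 and -0.49. With the covariate their differences in Y3 were -0.91 for Prg4, -0.87 for Alox8, -1.42 for Chgb and -1.33 for H2-M2, between 90% and 97.6% of those without it. The SE of these 4 differences was 0.25 to 0.34 with the covariate.

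**Figure D2:**
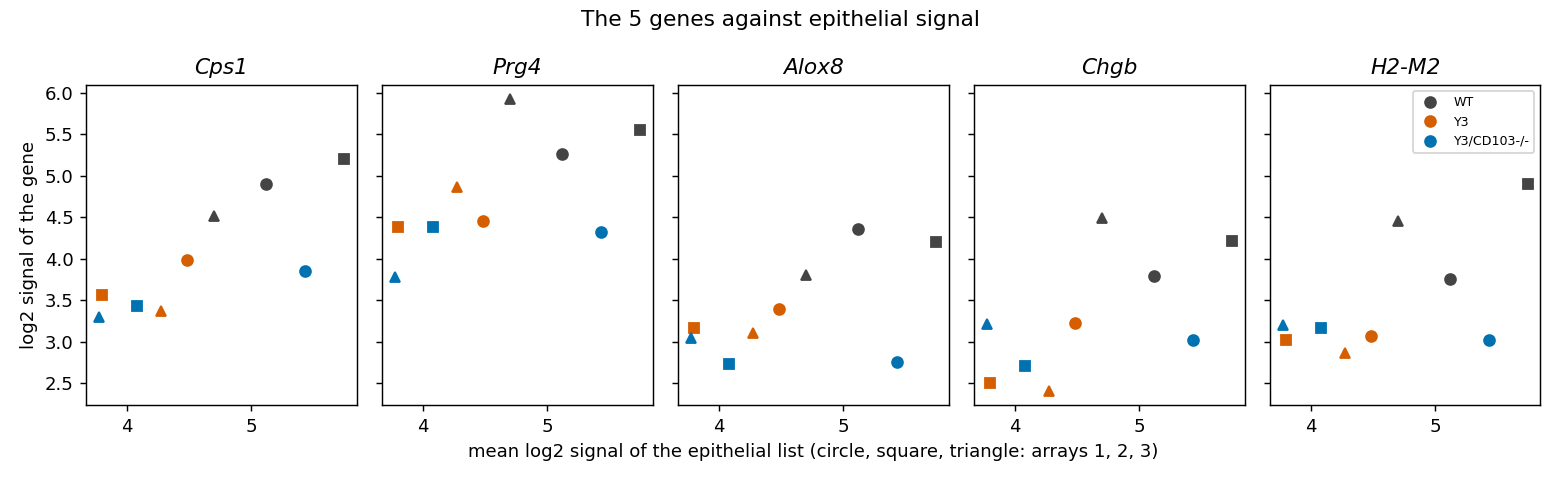
Log2 signal of each gene against the mean log2 signal of the epithelial list on the same array, coloured by genotype, with arrays 1, 2 and 3 as circle, square and triangle. The choice of the genes put the Y3 genotypes below WT in every panel, and in each genotype the array with the highest epithelial mean is also the highest for Cps1.

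**Figure D3:**
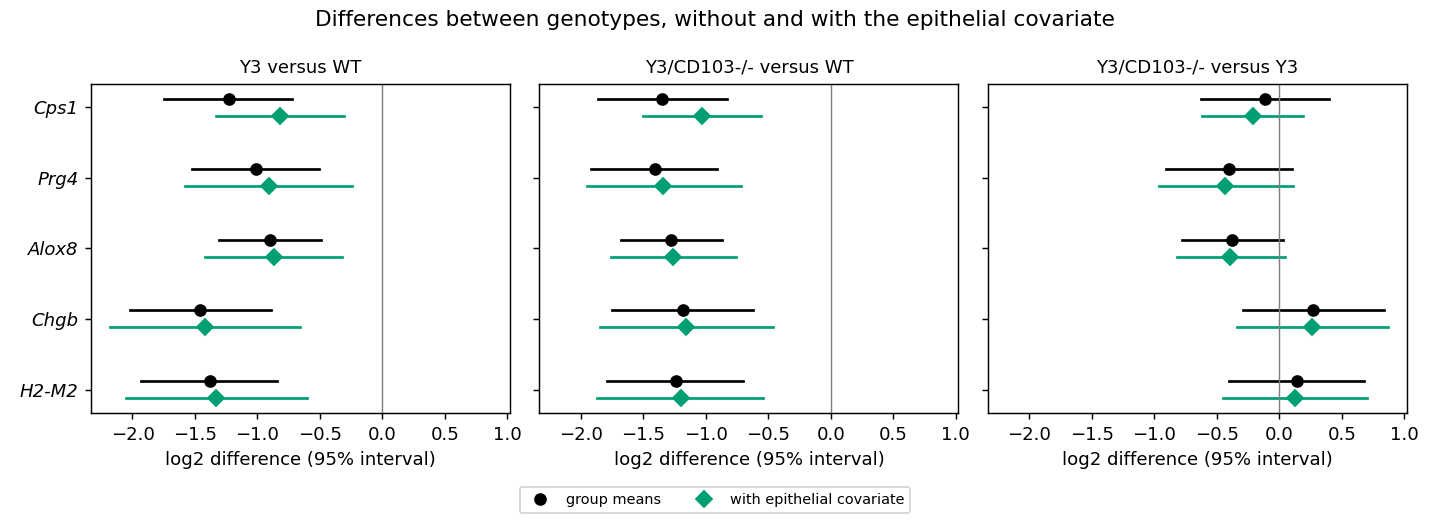
Log2 difference between genotypes for the 5 genes with 95% intervals, from group means (black circles) and with the epithelial list mean as a covariate (green diamonds). Cps1 moves most, from -1.23 to -0.82 in Y3 against WT; all intervals of Y3/CD103-/- versus Y3 span 0.

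Of the other marker lists, 13 of 16 tested macrophage and dendritic genes had a lower mean in Y3 too (list median -0.42, with H2-Aa passing), with list means of 4.38 to 5.0 for WT, 4.15 to 4.26 for Y3 and 4.58 to 4.73 for Y3/CD103-/-. At an unadjusted limma p under 0.05, 7 were lower and 1 higher in Y3. In Y3/CD103-/- against Y3, 12 of the 16 had a higher mean. Of these, 6 had an unadjusted p under 0.05, as 9.9% of all tested genes did in either direction, and 0 passed. H2-Aa, a class II MHC chain, fell by 1.80 log2 in Y3 (limma adjusted p = 0.0264), a call lost without WT array 2 (0.0731) or 3 (0.0779) or Y3 array 1 (0.124), 2 (0.0602) or 3 (0.122), with the epithelial covariate (0.215) and with only the Y3 and WT arrays in the fit (0.058). Its difference with the covariate was -1.61. Cd68, a lysosomal protein of macrophages, differed the other way, by 0.77 (0.0721). B and plasma cell genes had list means of 4.20 to 4.56, 4.02 to 4.19 and 4.07 to 4.31, with 0 of 10 passing in limma (5 lower in Y3 at an unadjusted p under 0.05). Stromal and endothelial genes, a list that includes the T cell gene Thy1, ran from 4.09 to 4.23, 4.09 to 4.24 and 4.07 to 4.33, with 0 of 10 passing in limma (1 higher in Y3 at an unadjusted p under 0.05). H2-M2 had an r of 0.87 with the macrophage and dendritic list within genotypes (rho 0.53, exact permutation p = 0.213 and 0.319, adjusted 0.986 and 0.854). That relation rested on WT arrays 1 and 2, without which r was -0.73. The part of these cells in the values of the 5 genes was not tested further.

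Prg4 had its highest correlation within genotypes with a list of tissue Treg genes, such as Icos, Il10 and Ccr8. The r was 0.90 and rho 0.93 over the 9 arrays (exact permutation p = 0.00463 for both, the smallest the design allows), adjusted p = 0.162 for both over the 35 relations, and r was 0.71 without WT array 1 and Y3/CD103-/- array 3. Alox8 went the other way against that list (r -0.74, rho -0.85, exact permutation p = 0.0509 and 0.0231, adjusted 0.445 and 0.202; r -0.36 without the same arrays). Prg4 and Alox8 ran opposite to each other within genotypes, with r -0.88 and rho -0.93 (exact permutation p = 0.0139 for both, adjusted 0.216 and 0.202), and r -0.82 without WT arrays 1 and 3. Of the 15 tissue Treg genes tested, 2 fell and 1 rose in Y3, with a list median of -0.63, and 2 fell in Y3/CD103-/-, with a median of -0.21. Klrg1, an inhibitory receptor of mature effector cells, fell by 2.05 in Y3 (limma adjusted p = 0.0124) and by 2.10 in Y3/CD103-/- (0.0122). Il17rb, a receptor chain for interleukin-25, fell by 1.63 (0.0246) and by 2.38 (0.0045). Il1r2, the decoy receptor of interleukin-1, rose by 1.43 in Y3 (0.0165). With an array left out, these calls in Y3 held in 7, 3 and 6 of 9 fits: that of Klrg1 was lost without Y3 array 1 or 3, that of Il1r2 without any Y3 array, and that of Il17rb without any WT or Y3 array. The Y3/CD103-/- calls of Klrg1 and Il17rb held in all 9. With only the 2 groups in the fit that of Klrg1 was lost (0.065) and that of Il17rb held (0.0352). With the epithelial covariate the Y3 calls were lost (0.146, 0.215 and 0.17), as was that of Klrg1 in Y3/CD103-/- (0.0637), while that of Il17rb held (0.0271). The differences with the covariate were -2.01, -1.23 and 1.27 in Y3, and -2.07 for Klrg1 and -2.08 for Il17rb in Y3/CD103-/-. With the replicate block the Y3 call of Il17rb was 0.0548. How these genes relate to the members' difference from WT was not tested.

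In all, 3 of the 35 relations had an unadjusted p under 0.05 for Pearson's r and 0 an adjusted one.

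Around Cps1, the urea cycle and citrulline genes gave no call. Of 17 listed, 13 had a feature and 11 were tested. In limma 0 passed in any of the 3 comparisons (1 higher and 1 lower in Y3 at an unadjusted p under 0.05), and the median difference was -0.11 in Y3 and -0.09 in Y3/CD103-/-. Glud1, glutamate dehydrogenase, stood at 7.89 ± 0.08, 7.87 ± 0.20 and 7.88 ± 0.27 in WT, Y3 and Y3/CD103-/-, and Glul, glutamine synthetase, at 7.12 ± 0.30, 6.99 ± 0.17 and 7.03 ± 0.06. Otc, the next enzyme of the cycle after Cps1, was not above the array median often enough to be tested, at 3.06 ± 0.44, 2.39 ± 0.11 and 2.80 ± 0.12. Arg2, a mitochondrial arginase, had the lowest p of the list in Y3, with a difference of -0.88 (adjusted p = 0.162, limma).

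Around Prg4, 11 of 24 proteoglycan and hyaluronan genes were tested and 0 passed in limma (0 higher and 3 lower in Y3 at an unadjusted p under 0.05). The median difference was -0.05 in Y3 and 0.06 in Y3/CD103-/-. Srgn, the proteoglycan of leukocyte granules, measured 9.50 ± 0.04 for WT, 9.84 ± 0.22 for Y3 and 9.80 ± 0.13 for Y3/CD103-/-. Cd44, a receptor of hyaluronan and lubricin, stood at 6.47 ± 0.17, 6.07 ± 0.22 and 6.30 ± 0.14 (difference in Y3 -0.40, adjusted p = 0.268).

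Around Alox8, only 7 of 18 lipoxygenase and eicosanoid genes were tested, and of the other lipoxygenase genes listed Alox5 passed the filter, as did Alox5ap, which encodes its activating protein (difference in Y3/CD103-/- -0.58, limma adjusted p = 0.188). Lta4h, which makes leukotriene B4, measured 6.19 ± 0.15 for WT, 6.19 ± 0.20 for Y3 and 5.98 ± 0.09 for Y3/CD103-/-, and Hpgds, a prostaglandin D synthase, at 5.05 ± 0.49, 4.79 ± 0.27 and 4.77 ± 0.24. In limma 0 of the 7 passed (0 higher and 1 lower in Y3 at an unadjusted p under 0.05, 0 and 2 in Y3/CD103-/-), with medians of -0.26 and -0.25.

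Around Chgb, 16 of 26 granin and enteroendocrine genes were tested. In limma 0 passed (1 higher and 0 lower in Y3 at an unadjusted p under 0.05, 1 and 1 in Y3/CD103-/-), and the medians were 0.03 and 0.00. Chga, the partner granin that marks enteroendocrine cells, measured 4.42 ± 0.49 for WT, 4.01 ± 0.20 for Y3 and 4.20 ± 0.52 for Y3/CD103-/-, a difference in Y3 of -0.41 (adjusted p = 0.491). Of the gut hormone genes, the 2 brightest were Ghrl, which encodes ghrelin, at 4.98 ± 0.38, 5.13 ± 0.36 and 5.20 ± 0.41, and Gip at 4.56 ± 0.44, 4.80 ± 0.04 and 4.87 ± 0.47. Over the 16 tested genes, 9 had a higher and 7 a lower mean in Y3 than in WT. Among listed genes too dim to be tested, Tph1 (3.19, 2.49 and 2.84) and Cck (3.01, 2.42 and 2.76) had a lower mean in Y3. Nts (1.81, 2.32 and 2.11) had a higher one. The list mean lay between 3.48 and 3.79 on all 9 arrays.

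Around H2-M2, 16 of 30 class I and antigen processing genes were tested, and 1 passed. H2-M10.4, another class Ib gene of the M region, fell by 0.95 log2 in Y3 (SE 0.15, limma adjusted p = 0.0169), from 3.53, 3.41 and 3.45 in the WT samples to 2.63, 2.32 and 2.58 with Y3. It stood at 3.01, 2.99 and 2.97 in Y3/CD103-/-, a difference from WT of -0.47 (adjusted p = 0.185). Like H2-M2 it was near the middle of the arrays and is one of a family of close copies, which a feature may not separate. It passed the filter through the WT arrays alone, and the call was lost without Y3 array 1 (adjusted p = 0.085), 2 (0.0602) or 3 (0.0984), and with the epithelial covariate (0.166). Its difference with the covariate was -0.90. The classical gene H2-K1 (9.69 ± 0.11, 9.75 ± 0.05 and 9.85 ± 0.10) and the light chain B2m (12.21 ± 0.10, 12.48 ± 0.12 and 12.34 ± 0.14) did not pass, and the list median was 0.16 in Y3 and 0.17 in Y3/CD103-/-.

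**Figure D4:**
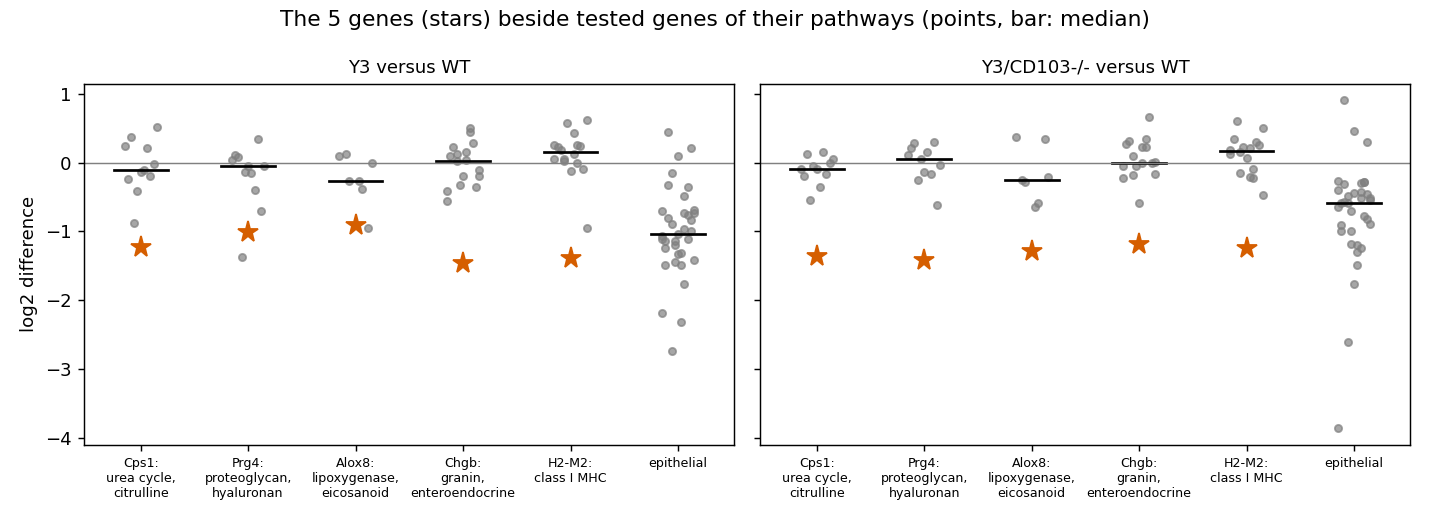
Log2 difference from WT of each of the 5 genes (stars) beside the tested genes of its pathway list and of the epithelial list (points, with the median as a bar), in Y3 and in Y3/CD103-/-. The pathway medians lie between -0.26 and 0.17, the epithelial medians at -1.04 and -0.58, and the stars between -0.90 and -1.46.

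The genes whose signal was most like that of each member over the 9 arrays were sought among all tested genes. The likeness includes the difference between genotypes that chose the members, so it is given as a description. For Cps1 they were Pdcd1, the inhibitory receptor PD-1 (Pearson's r = 0.955), Nr1d1, the clock repressor REV-ERBα (0.95), and Zfp36, an RNA-decay protein (0.945). For Prg4 they were Gbp2b, an interferon-inducible GTPase (0.964), Sccpdh (0.955) and Nab2, a repressor of EGR factors (0.953). For Alox8 they were Matn2, an extracellular matrix protein (0.962), Ugcg, glucosylceramide synthase (0.952), and Apobec3, an antiviral deaminase (0.95). For Chgb they were Slc16a5 (0.953), Plp2 (0.929) and the metallothionein Mt2 (0.913), and for H2-M2 Tbc1d4, a Rab GTPase activator (0.945), Cask (0.939) and the Notch target Hes1 (0.931). No gene was named for more than 1 member. None of those named is on the epithelial list, but that list holds only 35 of the 12792 tested genes, so this was no test. Pdcd1 is on the tissue Treg list.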

How the data were processed

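RNA was amplified, biotin-labelled and hybridized to Affymetrix mouse Gene ST2.0 arrays, per the labels' protocols. RMA is the tool that the submitters' processing notes name. The authors' deposited table was taken as log2 signal from its range (0.115 to 14.05). The version and settings of RMA were not given in the sources used here. Of 39137 features, 23521 named exactly 1 gene in the platform annotation, 1814 several and 13802 none. The brightest feature was kept for each of 22180 genes (1082 had several). A gene was tested if it exceeded its array's median on at least 3 of 9 arrays, which left 12792.

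Groups were compared with limma 3.58.1 in R 4.3.3 (lmFit and eBayes, group means, all 9 arrays, no block), 2-sided, with Benjamini-Hochberg adjustment over all tested genes; errors of differences are SE, of levels SD. Members and lists were chosen with earlier results of these data known. Since both comparisons with WT share the arrays that chose the members, the members' differences there are a description, with SE or interval for the spread, and their calls are listed as a description only. Y3/CD103-/- versus Y3 also shares arrays with that choice, so the members' p-values there are given as a description too. Relations across arrays used deviations from group means and exact permutation within groups (216 arrangements, SciPy 1.17.1). Replicate numbers did not pair arrays (r of deviations -0.04 to 0.11 over 9 pairs, 1 above 0.1). Genes were named as the 5 members, the 3 most alike genes of each (without predicted genes, small RNAs, olfactory or vomeronasal receptors and T or B cell receptor segments), passing or otherwise the 2 brightest genes of each pathway list, and defining or bright markers. Arg2, Otc, H2-K1, B2m, Itgae, Nrp1, Il2ra, Klrg1, Il17rb, Il1r2, Alox5ap, Ptgs2 and H2-M3 were added after their values were seen. So were Fabp2, Slc26a3, Apoa4, Alpi, Lyz1, Tph1, Cck and Nts. The fit was tested on simulated data: with 12792 genes, the fit recovered 51% of changes of 2-fold and 94% of those of 4-fold in Y3 versus WT, with 0 false calls, 59% and 94% with 13 in Y3/CD103-/- versus WT, and 59% and 94% with 8 in Y3/CD103-/- versus Y3. The simulated noise was drawn independently for each gene and array. Real arrays share variation across genes, such as that of the epithelial list, so these rates may not hold for them.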

Additional observations from a re-analysis of the deposited data

How the results depend on the processing

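In both comparisons with WT, the differences of the 5 genes kept their sign and stayed within 1 SD of the reported value under every alternative run (filter, features per gene, scaling, variance model, array weights, arrays in the fit, replicate block, epithelial covariate, each array left out), as far as each could be run (Alox8, Chgb and H2-M2 did not pass the filter on all 9 arrays), except that of Cps1 in Y3, which was -0.82 with the epithelial covariate. In Y3/CD103-/- versus Y3 none passed under any alternative, and Cps1 turned to 0.04 after centring on the median of the tested genes (an alternative chosen after seeing the data) and ran from -0.27 to 0.06 with 1 array left out. Counts of called genes depended on the settings. In Y3 versus WT the 101 became 52 with no filter, 222 with the filter on all 9 arrays, 346 with a trended robust variance, 346 with array weights, 63 with only the 2 groups, 54 with the replicate block and 13 with the covariate, and 8 to 119 with 1 array left out. In Y3/CD103-/- versus WT the 107 became 54, 215, 309, 60, 17, 55 and 22 in that order, and 28 to 70. In Y3/CD103-/- versus Y3 the 1 became 3 with features averaged, 10 with the trended robust variance and 9 with array weights, and 1 to 2. The split in Y3 of 79 higher and 22 lower became 46 and 32 after quantile normalization and 46 and 54 after centring on the tested genes, which moved the median of all genes from 0.15 to 0.04 and -0.02; the cause was not tested. Beside the fits with an array left out, the members' calls changed as follows. In Y3, Cps1, Chgb and H2-M2 lost theirs with no filter, with only the 2 groups and with the covariate, and Chgb and H2-M2 with the replicate block; Prg4 gained one with the filter on all 9 arrays and Alox8 after quantile normalization, and both with centring on the tested genes, the trended robust variance and array weights. In Y3/CD103-/-, all 4 calls were lost with only the 2 groups and with the covariate, those of Cps1 and H2-M2 with no filter and with array weights, those of Prg4 and H2-M2 with the replicate block, and that of H2-M2 with centring on the array median; Chgb gained one with the trended robust variance. Against the epithelial list, r with 1 array left out ran from 0.77 to 0.94 for Cps1, -0.18 to 0.55 for Prg4, -0.35 to 0.44 for Alox8, -0.16 to 0.29 for Chgb and -0.43 to 0.38 for H2-M2, and that of Alox8 was -0.01 after quantile normalization. Several of the lower values lay near or under the array median, and how low a value can be measured was not tested.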

Other observations

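Ptgs2 and H2-M3, picked here from the pathway lists after their values were seen, had the smallest unadjusted p of those lists in Y3/CD103-/- versus Y3, and neither passed. Ptgs2, the inducible cyclooxygenase, measured log2 4.80 ± 0.88 (SD, n = 3) for WT, 3.86 ± 0.32 for Y3 and 5.14 ± 0.26 for Y3/CD103-/-, a difference of 1.28 between the last groups (limma adjusted p = 0.343), and of -0.95 between Y3 and WT (0.231). H2-M3, which presents formylated peptides, stood at 5.71 ± 0.15, 6.13 ± 0.14 and 5.49 ± 0.24, a difference of -0.64 (limma adjusted p = 0.314), and of 0.43 between Y3 and WT (0.243). All 3 Y3/CD103-/- arrays lay above all 3 Y3 arrays for Ptgs2 and below them for H2-M3. These 2 groups did not overlap in 18.6% of all tested genes in either direction, and lay wholly lower in Y3/CD103-/- in 14.4%.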
